A study of Homo sapiens with 12 samples.

Results

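The miRNA names numbered above 5000 are late additions to the human miRNA catalogue, since new names are numbered in the order in which they are registered. Names of the small RNA count table were taken here when the integer after "hsa-miR-" was above 5000 and the raw counts summed over the 6 small RNA libraries reached 300. This gave 147 names, of 652 numbered above 5000 without a count limit and of 2588 names in the table. The names were chosen by their summed raw count, so their abundance is given as a description. A name can reach a sum over both groups through the group in which it is high, so counts and medians over the 147 names are likewise descriptions. The names just inside the limit were miR-6805-5p with 310 counts and miR-6895-5p with 309, and those just outside were miR-6821-3p with 299 and miR-6822-5p with 297.

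The libraries came from HEK293T, a cell line from human embryonic kidney with a viral large T antigen. Cells were transfected with siRNA against ERI2, which encodes a member of the ERI exonuclease family, or with a control siRNA named C2, each at 50 nM. A second transfection followed after 48 hours, and cells were harvested 72 hours after it. Each group had 3 small RNA libraries and 3 long RNA libraries, without a second ERI2 siRNA group or a rescue in the samples analysed here, so off-target effects and loss of ERI2 cannot be told apart. The growth protocol names HEK293, the parental line, where the label has HEK293T. The labels do not say that replicates were separate cultures, so a p-value refers only to the spread between the libraries at hand, and that spread may be technical.

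A miRNA is cut from a hairpin transcript, and the names ending in 5p and 3p are its left and right arms. Bases 2 to 8 of the mature strand, the seed, pair with target mRNAs. Many late names lie in short introns of protein-coding genes and were found by deep sequencing. Some of these are mirtrons, whose hairpin is a whole spliced intron and which bypass the nuclear cutting step by DROSHA. Many late names are rarely sequenced, and some may be fragments of other RNAs.

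RefSeq (GRCh38.p14) held a mature sequence for 131 of the 147 names. The 6 most abundant of these are shown first, because they hold much of the signal described below; capitals mark the seed, and all are written from the 5′ end.
miR-6126: gUGAAGGCccggcggaga
miR-6724-5p: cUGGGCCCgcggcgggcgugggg
miR-6836-5p: cGCAGGGCccuggcgcaggcau
miR-6869-5p: gUGAGUAGuggcgcgcggcggc
miR-6075: aCGGCCCAggcggcauuggug
miR-6789-5p: gUAGGGGCgucccgggcgcgcggg

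The next 6 sequences belong to names that were called higher with ERI2 siRNA under neither scale used below, with capitals again marking the seed. A further name of this kind was miR-5096.
miR-7706: uGAAGCGCcugugcucugccgaga
miR-5701: uUAUUGUCacguucugauu
miR-7977: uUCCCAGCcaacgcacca
miR-7974: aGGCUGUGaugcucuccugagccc
miR-5585-3p: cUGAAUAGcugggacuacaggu
miR-6750-3p: gAACUCACccucugcucccag

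The 4 names with the largest rises are shown for contrast, with the seed in capitals.
miR-5090: cCGGGGCAgauugguguagggug
miR-7113-3p: cCUCCCUGcccgccucucugcag
miR-7158-3p: cUGAACUAgagauugggccca
miR-6499-5p: uCGGGCGCaagagcacugcagu

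The abundant names were rich in G and C. GC content over the 131 sequences had a median of 68.2% and ran from 31.6% to 91.7%, against a median of 52.2% for names numbered 1 to 1000 and 70.3% for names numbered over 1000 up to 5000 under the same limit of 300 counts. The run GGGG, searched on the mature strand alone, occurred in 39 of the 131 sequences (29.8%), against 17.8% of all tested names with a sequence. Under the limit of 300 counts it occurred in 23.3% of sequences numbered over 1000 up to 5000 and 10.1% of those numbered 1 to 1000. The lowest GC content among the 131 names with a sequence belonged to miR-5701. Of the 46 right arms with a sequence, 28 (60.9%) ended in AG, the letters at the end of an intron, and 25 of them in CAG. Of all 795 right arms with a sequence, 23.0% ended in AG. By contrast, 5 of 52 left arms (9.62%) began with GU, the letters at the start of an intron, against 5.65% of all 779 left arms. Under the same limit of 300 counts, GU began 9 of 55 left arms (16.4%) of names numbered over 1000 up to 5000. It began 0 of 77 left arms of names numbered 1 to 1000. The search for these ends was chosen after the sequences were seen. Of the 131 names, 22 (16.8%) lay on chromosome 19, against 8.55% of all names with a sequence. No mature sequence among the 131 had another name of the table within 2 substitutions among all names with a sequence.

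The small RNA libraries held 1029265, 741800 and 943421 counts with ERI2 siRNA, against 808274, 765527 and 723224 with control siRNA, and the long RNA libraries held from 29143596 to 38306631. ERI2 mRNA, the target, measured 34.5, 35.7 and 32.4 counts per 1000000 counts (CPM) with ERI2 siRNA, against 54.3, 58.2 and 54.4 CPM with control siRNA. Its log2 fold change was -0.70 (SE 0.0762; adjusted p = 0.000683, edgeR quasi-likelihood with Benjamini-Hochberg adjustment). VIM and LIN28B, which HEK293 lines express, averaged 735 and 113 CPM with ERI2 siRNA and 924 and 117 CPM with control siRNA. NEFL, NEFM and INA, also known from these lines, averaged 25.8, 5.96 and 15.2 CPM with ERI2 siRNA. With control siRNA they averaged 36.5, 8.09 and 21.2 CPM, and edgeR called NEFL and INA lower with ERI2 siRNA. PAX2, also known from these lines, averaged 1.04 CPM with ERI2 siRNA and 0.761 CPM with control siRNA. HBB and INS, markers of blood and pancreatic islets, were at 0 CPM in both groups. ALB (liver) and PTPRC (blood) had group means from 0.011 to 0.168 CPM. The most abundant miRNA, miR-10a-5p, took 11.9%, 8.49% and 10.3% of counts with ERI2 siRNA, against 24.3%, 25.5% and 24.6% with control siRNA.

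The 147 late names together took a larger part of the small RNA reads with ERI2 siRNA. Their share of all miRNA counts was 16.9%, 19.5% and 18.1% with ERI2 siRNA, against 7.47%, 7.0% and 7.08% with control siRNA. The mean share was 18.1 ± 1.32% with ERI2 siRNA and 7.18 ± 0.249% with control siRNA (SD, n = 3 each). Every ERI2 siRNA library lay above every control library, and no test was made of the sum, because the names were chosen with results known. Set against miR-10a-5p in the same library, a ratio that needs no scaling, the late names had 142, 230 and 175 reads per 100 miR-10a-5p reads with ERI2 siRNA. The control libraries had 30.8, 27.5 and 28.8. The depth of a library does not enter this ratio, but a fall of miR-10a-5p and a rise of the late names cannot be told apart in it. In bulk libraries a change in every cell and a change in some of the cells cannot be told apart either.

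Names numbered over 1000 up to 5000 took 35.2% of counts with ERI2 siRNA and 14.1% with control siRNA. Names numbered 1 to 1000 took 42.9% with ERI2 siRNA and 76.0% with control siRNA, and let-7 names, the classic developmental timing family, took 0.514% with ERI2 siRNA and 1.13% with control siRNA. The share of the late names moved beside an opposite shift of the early names. All shares are parts of the same total, so a fall of the early share by itself raises the sum of the others.

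The size and sign of a change for single names depended on how libraries were scaled. TMM, the scaling of the main test, sets factors so that most names centre near no change, and it gave factors of 1.44, 1.63 and 1.51 to the ERI2 siRNA libraries and 0.678, 0.641 and 0.646 to the control libraries. Division by the total miRNA count instead sets the sum of all names equal. The median log2 fold change of all 1316 tested names was 0.05 under TMM and 1.27 under total library size, a shift of 1.21. Which scale is nearer to molecules per cell cannot be told from these counts, and no spike-in is named in the labels.

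All 147 names passed the filter on low counts. Under TMM, 37 were higher with ERI2 siRNA, 14 were lower and 96 did not reach an adjusted p under 0.05 (edgeR quasi-likelihood, Benjamini-Hochberg over all tested names). Of all tested names, 34.1% were called under TMM, 11.1% higher and 23% lower. Of the 596 names with at least 300 counts in all number ranges, 19.5% were higher and 30.9% lower. The median log2 fold change of the 147 names was 0.22, and 1 of the 37 rises but 7 of the 14 falls reached 2-fold. The count of rises was 21 without control replicate 1 and 21 without control replicate 3. The count of falls was 9 without ERI2 siRNA replicate 3, 9 without control replicate 2 and 9 without control replicate 3.

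Under total library size, 140 names were higher, 2 were lower and 5 did not pass. Of all tested names, 91.9% were called on this scale, 78.3% higher and 13.7% lower. Of the 596 names with at least 300 counts, 74.7% were higher and 22.1% lower. The median log2 fold change of the 147 names was 1.44, against 1.27 for all tested names, and 122 of the 140 rises reached 2-fold. The groups of libraries did not overlap for these 140 rises and 2 falls, where the same held upward for 76.3% and downward for 14.1% of all tested names. Under TMM, the groups did not overlap for 65 names in the upward and 20 in the downward direction, where the same held for 21.5% and 26% of all tested names. Of the 14 falls under TMM, 7 were rises under total library size.

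**Figure D1:**
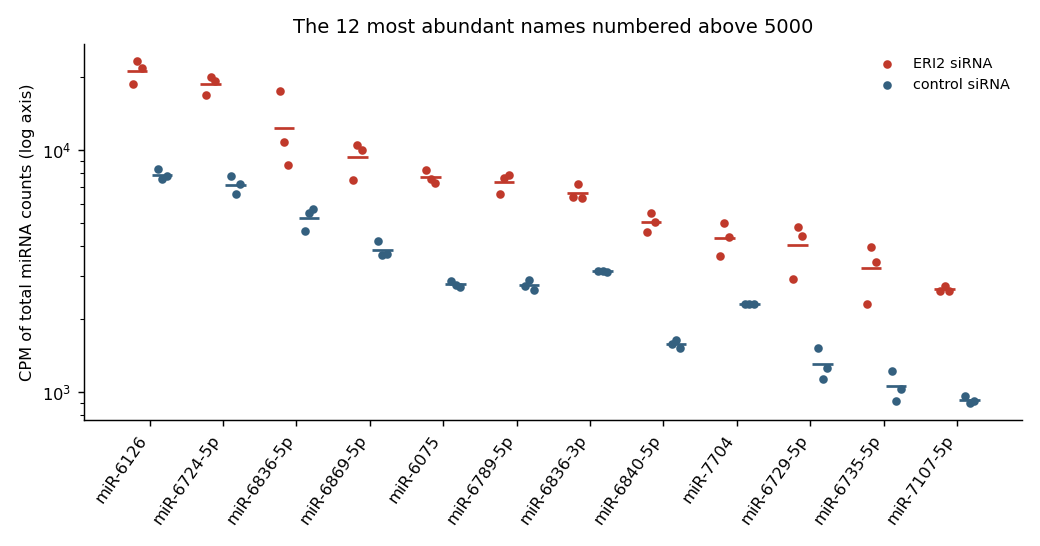
Level of the 12 most abundant names in CPM of total miRNA counts, on a log axis, with ERI2 siRNA libraries (red, left) and control siRNA libraries (blue, right) as points and their mean as a bar. Every ERI2 siRNA point lies above every control point of the same name on this scale, and miR-6836-5p has its highest ERI2 siRNA library at 17512 CPM, apart from the others at 10785 and 8699.

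The 12 most abundant names held from 55.2% to 58.1% of the counts of the 147 names in each library. In the plot of the 12 levels, the leading name, miR-6126, had 18679, 23331 and 21902 CPM of total counts with ERI2 siRNA, against 8304, 7616 and 7783 CPM with control siRNA. Its log2 fold change was 1.43 under total library size (SE 0.117) and 0.20 under TMM (SE 0.106), and the TMM value did not pass (edgeR's quasi-likelihood test, adjusted p = 0.167). miR-6724-5p, a left arm of 91.3% GC, had 16902, 20018 and 19355 CPM of total counts with ERI2 siRNA, against 7782, 6554 and 7201 CPM with control siRNA. Its log2 fold change was 1.39 under total library size and 0.16 under TMM, where it did not pass (adjusted p = 0.283, edgeR). For both names the 2 scales differed by about the shift of the whole table.

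miR-6840-5p was the most abundant name that rose on both scales. It had 4567, 5461 and 5041 CPM of total counts with ERI2 siRNA, against 1569, 1628 and 1510 CPM with control siRNA. The log2 fold change was 0.45 under TMM (SE 0.100; edgeR's quasi-likelihood test, adjusted p = 0.00286) and 1.68 under total library size. miR-7704 was the most abundant name whose call turned with the scale. Its levels were 3646, 4993 and 4378 CPM of total counts with ERI2 siRNA, against 2310, 2303 and 2313 CPM with control siRNA, groups that do not overlap. Its log2 fold change was 0.91 under total library size and -0.32 under TMM (edgeR's quasi-likelihood test, adjusted p = 0.0338), and the TMM call was lost when any 1 control library or ERI2 siRNA replicate 3 was left out (adjusted p from 0.0598 to 0.113).

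A single library decided miR-6836-5p, the third name by abundance. It had 18024, 8000 and 8207 raw counts with ERI2 siRNA, against 3717, 4179 and 4112 with control siRNA. Replicate 1 of ERI2 siRNA stood above the other two. Its log2 fold change under TMM was 0.02 with all libraries (edgeR's quasi-likelihood test, adjusted p = 0.946) and -0.42 without that library (adjusted p = 0.00446). Its partner arm miR-6836-3p had 6580, 5338 and 5944 raw counts with ERI2 siRNA, against 2560, 2408 and 2255 with control siRNA, without a library standing apart. All of the 12 had a positive log2 fold change under total library size, from 0.91 for miR-7704 to 1.68, while their TMM values ran from -0.32 to 0.45.

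Across libraries of a group most of the 147 names varied little. The median coefficient of variation of their CPM of total counts was 12.4% with ERI2 siRNA and 10.3% with control siRNA. On the same scale, the highest library was at least 2 times the lowest for 4 names with ERI2 siRNA (miR-6892-3p, miR-5701, miR-6785-5p and miR-6836-5p). The same held for 2 names with control siRNA (miR-5701 and miR-6851-5p). These names were picked out after their values were seen.

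The names with the largest rises under TMM were not among the most abundant: over the 6 libraries miR-5090 had 369 counts, near the limit of 300, miR-7113-3p had 528 and miR-7158-3p had 1744, against a median of 1128 for the 147 names. miR-5090 had 112, 97.1 and 134 CPM of total counts with ERI2 siRNA, against 27.2, 26.1 and 19.4 CPM with control siRNA. The log2 fold change was 1.02 under TMM (SE 0.220; edgeR's quasi-likelihood test, adjusted p = 0.00232) and 2.23 under total library size, the largest of the 147 names on both scales. miR-7113-3p had 156, 183 and 153 CPM of total counts with ERI2 siRNA, against 37.1, 39.2 and 37.3 CPM with control siRNA. Its log2 fold change was 0.89 under TMM (adjusted p = 0.000496, edgeR). miR-7158-3p had 533, 531 and 534 CPM of total counts with ERI2 siRNA, against 146, 142 and 96.8 CPM with control siRNA. Its log2 fold change was 0.83 under TMM (adjusted p = 0.000473, edgeR). The groups of these 3 names did not overlap on either scale.

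Below them, miR-6499-5p had the smallest p of the rises. It measured 627, 799 and 699 CPM of total counts with ERI2 siRNA, against 199, 169 and 152 CPM with control siRNA, a log2 fold change of 0.80 under TMM (edgeR's quasi-likelihood test, adjusted p = 0.000109). miR-6894-5p rose by 0.78, and miR-6857-5p and miR-6815-5p each by 0.69 under TMM. The last of these had 1120, 1285 and 1067 CPM of total counts with ERI2 siRNA, against 303, 315 and 304 CPM with control siRNA. Of the 37 rises, 17 were left arms, 12 were right arms and 8 had no arm in the name, where the 147 names held 61 left arms, 50 right arms and 36 without an arm in the name. Each of the 37 was also called higher under total library size.

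**Figure D2:**
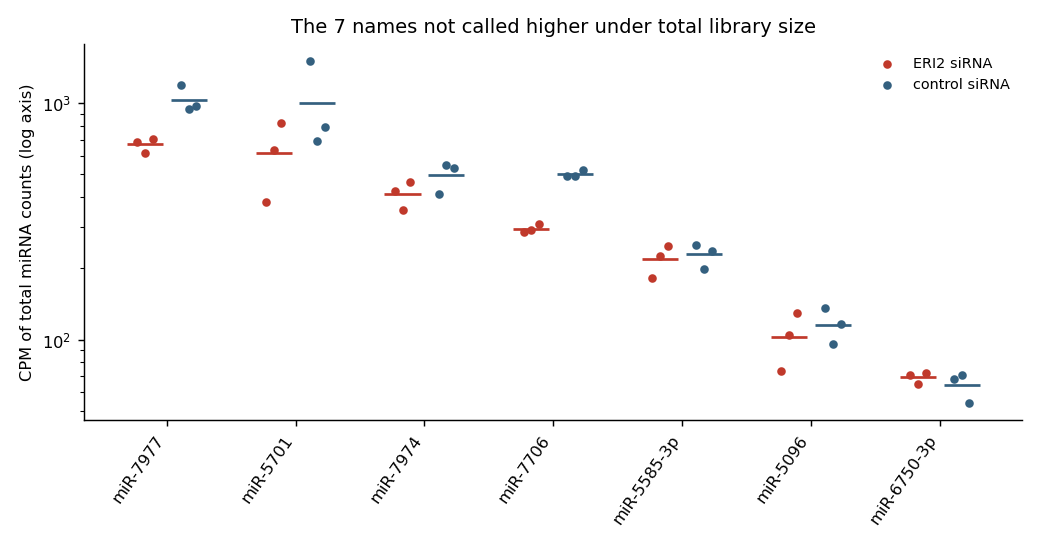
Level of the 7 names that were not called higher under total library size, in CPM of total miRNA counts on a log axis, with ERI2 siRNA libraries (red, left) and control siRNA libraries (blue, right) as points and their mean as a bar. The groups are apart for miR-7977 and miR-7706, both lower with ERI2 siRNA, and overlap for the other 5 names.

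Of the 147 names, 7 were at least 2-fold lower with ERI2 siRNA under TMM and were not called higher under total library size. As the plot of these 7 names shows, miR-7706 had 285, 291 and 308 CPM of total counts with ERI2 siRNA, against 492, 491 and 521 CPM with control siRNA, without overlap. The log2 fold change was -1.99 under TMM (SE 0.112; edgeR's quasi-likelihood test, adjusted p = 1.01e-08) and -0.77 under total library size (SE 0.134; adjusted p = 1.52e-06). miR-7977 had 686, 613 and 708 CPM of total counts with ERI2 siRNA, against 1190, 947 and 969 CPM with control siRNA, again without overlap. It fell by 1.84 under TMM (edgeR's quasi-likelihood test, adjusted p = 2.87e-08) and by 0.63 under total library size (adjusted p = 2.13e-05). These were the only falls among the 147 names on both scales with all libraries kept. When 1 library was left out, from 2 to 3 names fell under total library size.

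miR-5701, the AU-rich name, was uneven in both groups. It had 393, 471 and 780 raw counts with ERI2 siRNA, against 1218, 531 and 575 with control siRNA, and its groups overlapped in CPM of total counts. The log2 fold change was -1.92 under TMM (edgeR's quasi-likelihood test, adjusted p = 5.75e-05) and -0.70 under total library size (adjusted p = 0.196). Its TMM call was lost without ERI2 siRNA replicate 1 (adjusted p = 0.0605) or replicate 2 (adjusted p = 0.0643).

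miR-7974, miR-5096, miR-5585-3p and miR-6750-3p fell under TMM by 1.48, 1.40, 1.29 and 1.10 on the log2 scale. Under total library size their log2 fold changes were -0.26, -0.18, -0.07 and 0.11, and none of these passed (edgeR's quasi-likelihood test, adjusted p from 0.0744 to 0.675). miR-7974, for example, had 427, 352 and 464 CPM of total counts with ERI2 siRNA, against 414, 545 and 532 CPM with control siRNA. The remaining 7 falls under TMM, from -0.76 for miR-6820-3p to -0.32 for miR-7704, were rises under total library size. miR-6820-3p had 245, 240 and 228 CPM of total counts with ERI2 siRNA, against 161, 182 and 177 CPM with control siRNA, a log2 fold change of 0.46 on that scale. Of the 14 falls, 0 were left arms, 5 were right arms and 9 had no arm in the name, against 61, 50 and 36 of the 147 names.

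**Figure D3:**
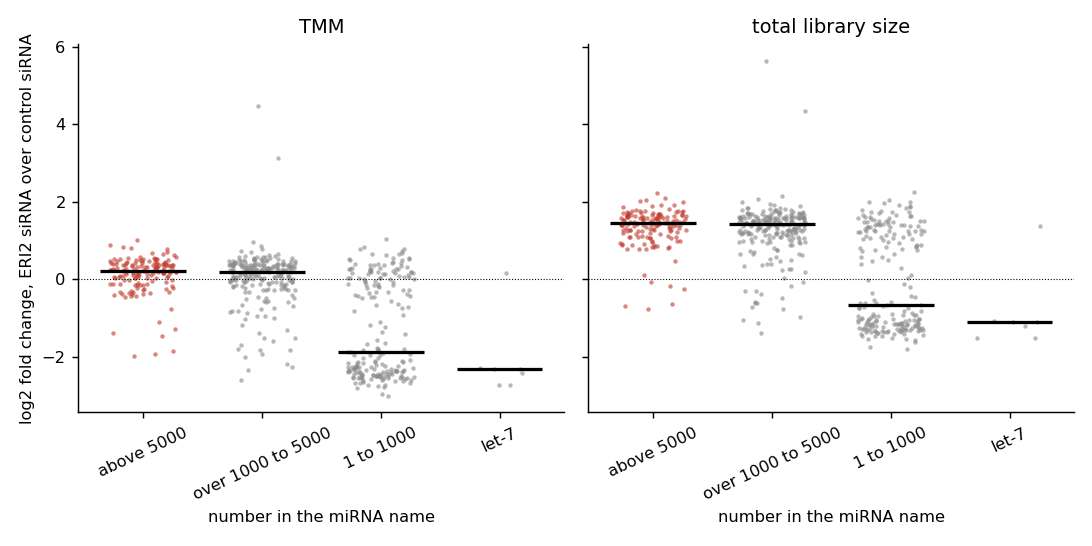
Log2 fold change of ERI2 siRNA over control siRNA for each name of at least 300 counts, by the number in the name, under TMM (left panel) and total library size (right panel); points are names and bars are medians. The median of names above 5000 is 0.22 under TMM and 1.44 under total library size, while that of all names numbered 1 to 1000, which spread over an upper and a lower cloud, is -1.88 under TMM and -0.67 under total library size.

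The late names were compared with the other number ranges under the same count limit, as a description. In the plot by number range, the median log2 fold change was 0.22 under TMM for names above 5000, 0.19 for names numbered over 1000 up to 5000 and -1.88 for names numbered 1 to 1000. Under total library size the medians were 1.44, 1.41 and -0.67 in that order. From the 10th to the 90th percentile the names above 5000 ran from -0.36 to 0.53 and names over 1000 up to 5000 from -0.79 to 0.49 under TMM. Called higher under TMM were 25.2% of the names above 5000 and 24.6% of those numbered over 1000 up to 5000, and called lower were 9.52% and 15.7%. The late names were thus close to names over 1000 up to 5000 and apart from the early names, of which 10.2% were called higher and 61.7% lower under TMM.

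Within the late names, the 83 numbered from 6700 to below 7000 held 57.5% of the counts, with 20 called higher, 5 called lower and a median of 0.23 under TMM. The 21 names numbered below 6000 had the lowest median of the blocks, -0.02, with 2 called higher and 4 lower under TMM and a median of 1.20 under total library size. They also had the lowest median GC content, 61.9%. Names numbered from 7000 to below 8000 contained 7 rises and 5 falls under TMM, miR-7706, miR-7977 and miR-7974 among the falls.

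**Figure D4:**
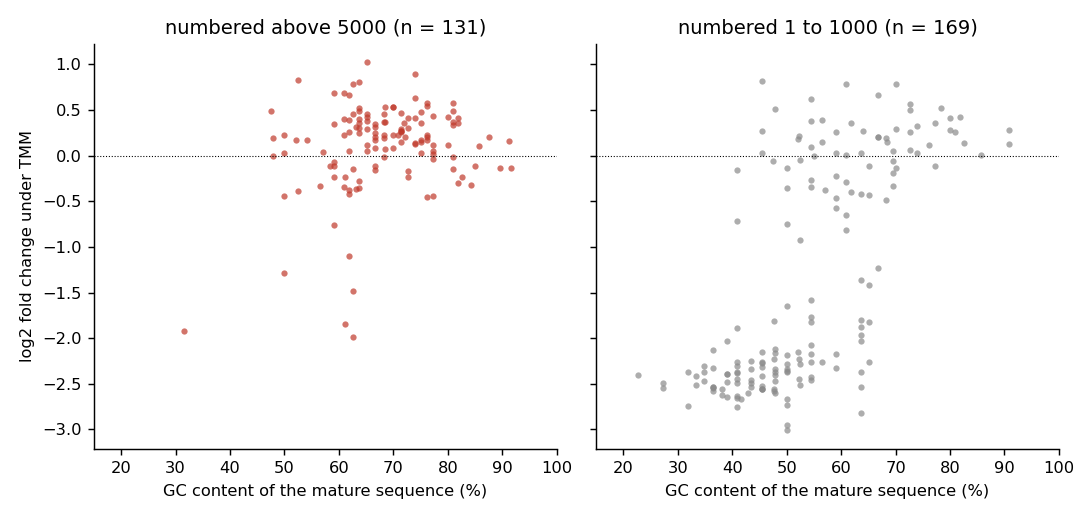
Log2 fold change under TMM, ERI2 siRNA over control siRNA, against the GC content of the mature sequence, for names above 5000 (left panel, 131 names) and names numbered 1 to 1000 (right panel, 169 names) with at least 300 counts. Most late names lie above 60% GC near a fold change of 0, while early names at or below 50% GC gather near their median of -2.39.

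The GC content of a name went with its fold change among early names. Across 169 early names Pearson's r was 0.68 and Spearman's rho 0.69, as the plot against GC content shows, and across the 131 late names they were 0.23 and 0.11. Names of both ranges come from the same libraries, and no p is given because names are not replicates. Early names above 80% GC had a median log2 fold change of 0.20 under TMM (6 names) and those over 70% up to 80% GC had 0.30 (12 names), near the medians of late names in the same bins, 0.10 (17 names) and 0.22 (37 names). The ranges differed in the lower bins. At over 60% up to 70% GC the median was -0.33 for early names (37 names) and 0.25 for late names (56 names). At over 50% up to 60% GC it was -0.75 (34 names) and -0.07 (13 names). Early names at or below 50% GC had a median of -2.39 (80 names), against 0.01 for the 8 late names in that bin. Late right arms that ended in AG had a median of 0.16 under TMM, and the other late right arms 0.26. Whether the base composition or the library preparation has a part in these values was not tested.

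Names with the same seed can bind overlapping targets, and 10 of the 131 names shared a seed in 5 pairs. They are shown as pairs, with the seed in capitals, to let their remaining bases be compared; miR-6724-5p and miR-6836-5p, printed above, are the partners of the first and second name.
miR-6773-5p: uUGGGCCCaggaguaaacaggau
miR-6132: aGCAGGGCuggggauugca
miR-5008-3p: cCUGUGCUcccagggccucgc
miR-6737-3p: uCUGUGCUucaccccuacccag
miR-5189-5p: uCUGGGCAcaggcggauggacagg
miR-6860: aCUGGGCAgggcuguggugagu
miR-6791-3p: uGCCUCCUuggucuccggcag
miR-6829-3p: uGCCUCCUccguggccucag

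Partners of a pair differed widely in abundance in most pairs. miR-6724-5p had 67021 counts over the 6 libraries and its partner miR-6773-5p had 866. miR-6836-5p had 46239 counts and miR-6132 had 494. miR-6791-3p and miR-6829-3p were alike, with 589 and 615 counts. Their log2 fold changes under TMM were 0.31 and 0.53, and the second passed (edgeR's quasi-likelihood test, adjusted p = 0.0170), a call lost when ERI2 siRNA replicate 1 or any 1 control library was left out (adjusted p from 0.0570 to 0.0709).

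The pair miR-5189-5p and miR-6860 took different signs under TMM. miR-5189-5p had 2156, 1801 and 2154 raw counts with ERI2 siRNA, against 686, 679 and 613 with control siRNA, a log2 fold change of 0.17 that did not pass. miR-6860 had 535, 527 and 592 with ERI2 siRNA, against 281, 260 and 237 with control siRNA, a log2 fold change of -0.36 under TMM (edgeR's quasi-likelihood test, adjusted p = 0.0243) and of 0.87 under total library size. This TMM call was lost when any 1 control library or ERI2 siRNA replicate 3 was left out (adjusted p from 0.0513 to 0.0763). Among names numbered over 1000 up to 5000 with the same seed, miR-1285-3p had a log2 fold change of -2.0 under TMM and was called lower. miR-3187-5p had -0.03 and was not called. In all, 41 of the 131 names shared a seed with some other name of the table.

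The ratio of left to right arm reads within a library does not depend on the scale. Of the 147 names, 2 arms of the same hairpin were present for 25 hairpins, and for 57 more hairpins 1 arm was among the names and the other was listed below the limit. The hairpin sequences with a changed ratio are shown from RefSeq (GRCh38.p14), with the mature arms in capitals.
miR-6765 hairpin: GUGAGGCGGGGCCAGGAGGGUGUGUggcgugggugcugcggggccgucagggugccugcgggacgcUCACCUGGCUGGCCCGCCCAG
miR-5587 hairpin: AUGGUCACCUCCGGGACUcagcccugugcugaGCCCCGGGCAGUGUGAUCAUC
miR-6869 hairpin: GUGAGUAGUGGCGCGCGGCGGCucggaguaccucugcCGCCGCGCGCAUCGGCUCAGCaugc
miR-6722 hairpin: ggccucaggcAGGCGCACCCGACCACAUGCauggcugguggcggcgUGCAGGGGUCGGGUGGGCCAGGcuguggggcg

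**Figure D5:**
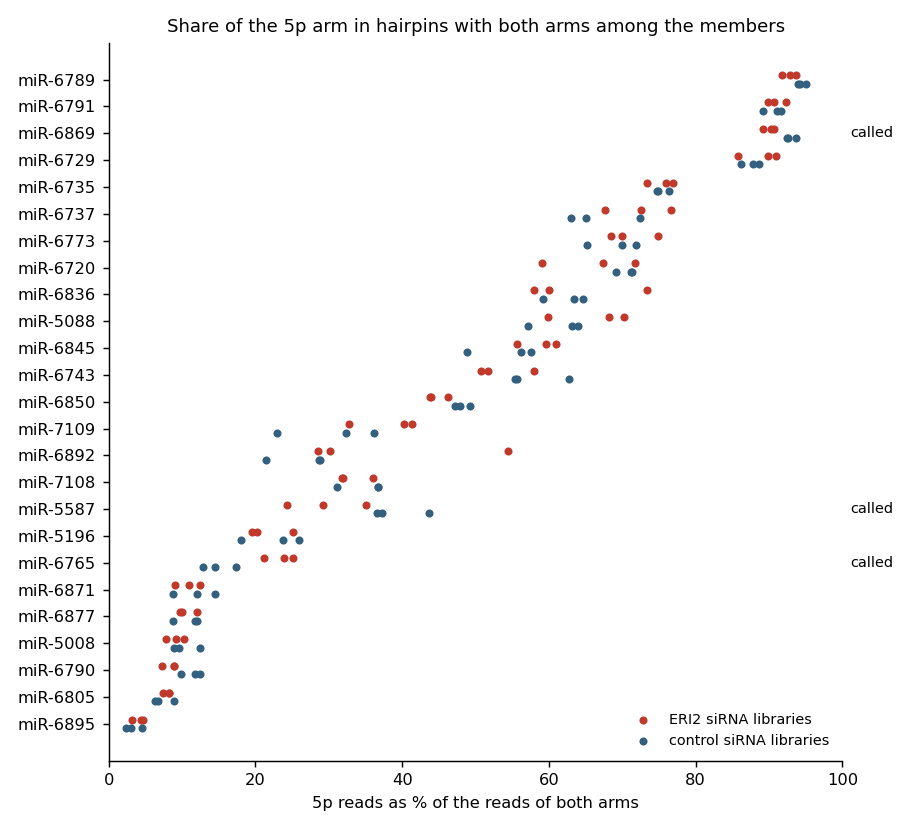
Reads of the left (5p) arm as a percentage of the reads of both arms, for the 25 hairpins with both arms among the names, with ERI2 siRNA libraries as red points above control siRNA libraries as blue points; "called" marks an adjusted p under 0.05 for the ratio. Shares run from near 0% to near 95%, and the 3 called hairpins are miR-6869, miR-5587 and miR-6765.

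Most arm ratios of the late hairpins did not pass the test. Of the 25 hairpins, 1 had a higher ratio of left to right arm reads with ERI2 siRNA and 2 had a lower ratio. Of the 57 hairpins with 1 arm among the names, 1 had a higher ratio. Of all 711 hairpins tested, 14.2% had a changed ratio in either direction, 6.05% a higher and 8.16% a lower one. The left arm held the larger part in 12 of the 25 hairpins, from a share of 3.85% to one of 93.2% over all libraries, so neither arm was generally the major one. The median absolute log2 change of the ratio was 0.26 over the 25 hairpins. For hairpins numbered 1 to 1000 with at least 300 counts on each arm, 17 of 36 had a changed ratio and the median was 0.51, and for those numbered over 1000 up to 5000, 8 of 39 had a changed ratio and the median was 0.29.

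The miR-6765 hairpin, whose sequence begins with GUGAG and ends with CAG, had left arm shares of 21.2%, 25.1% and 23.9% with ERI2 siRNA, against 12.9%, 17.4% and 14.5% with control siRNA. The 95% Wilson interval was 19.4% to 23.2% for the first ERI2 siRNA library and 10.8% to 15.2% for the first control library, which covers counting error only. The log2 ratio of left to right arm reads rose by 0.81 (SE 0.183; edgeR's quasi-likelihood test, adjusted p = 0.000167), and it kept its call without each library in turn. The right arm alone, miR-6765-3p, was lower under TMM (-0.45) and higher under total library size (0.77), so the ratio gives the part of the change that scaling cannot set.

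The miR-5587 hairpin had left arm shares of 29.2%, 24.3% and 35% with ERI2 siRNA, against 43.7%, 37.2% and 36.6% with control siRNA, and the groups did not overlap. Its log2 ratio fell by 0.63 (SE 0.170; edgeR's quasi-likelihood test, adjusted p = 0.00260), a call lost without ERI2 siRNA replicate 2 (adjusted p = 0.0989) or control replicate 1 (adjusted p = 0.0913). miR-6869 had left arm shares of 89.2%, 90.7% and 90.2% with ERI2 siRNA, against 93.7%, 92.4% and 92.6% with control siRNA. Its log2 ratio fell by 0.53 (adjusted p = 0.0106, edgeR), a call lost without control replicate 1 (adjusted p = 0.112). Here the minor right arm, miR-6869-3p, rose by 0.57 under TMM while the major left arm had 0.05.

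The miR-6722 hairpin had left arm shares of 14.1%, 15.3% and 16.3% with ERI2 siRNA, against 5.45%, 10.4% and 11.4% with control siRNA. The log2 ratio rose by 0.83 (SE 0.287; edgeR's quasi-likelihood test, adjusted p = 0.0321), with only 9, 20 and 19 left arm reads in the control libraries. This call was lost without ERI2 siRNA replicate 2 or 3 or control replicate 1 (adjusted p from 0.0602 to 0.409). With limma on the log2 ratio of each library in place of the count model, none of the 4 hairpins passed (adjusted p from 0.197 to 0.353 with 0.5 reads added to each arm), with changes of the same sign, and none passed with 2 reads added.

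Host genes were read from the long RNA libraries, which the choice of names did not use. By RefSeq (GRCh38.p14), 116 of the 147 names lay within the span of a protein-coding gene, 95 of them on the same strand, in 75 distinct genes. Of 69 such genes tested, 7 were higher with ERI2 siRNA and 0 were lower, or 10.1% called, against 8.54% of all genes in either direction, 4.29% higher and 4.25% lower (edgeR). At an unadjusted p under 0.05, 3 were lower, and DESeq2 and limma-voom each called 0 lower. The host genes had a median log2 fold change of 0.12, from -0.27 to 0.80, against 0.003 for all genes. No source used here gives the strand setting of the long RNA counts, so antisense reads may be included.

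CAPN15, a calpain-like gene that holds miR-5587, had the largest change; the host genes were named after their values were seen. It measured 48.9, 60.8 and 67.6 CPM with ERI2 siRNA, against 36, 29.3 and 36.4 CPM with control siRNA, a log2 fold change of 0.80 (edgeR's quasi-likelihood test, adjusted p = 0.00267). Its miRNA arms took different courses under TMM, 0.35 for the right arm and -0.24 for the left. MIIP, which holds miR-6729, measured 27.4, 27.5 and 27.0 CPM with ERI2 siRNA, against 20.8, 19.6 and 22.7 CPM with control siRNA, a log2 fold change of 0.38 (adjusted p = 0.0169, edgeR). Under TMM miR-6729-5p had 0.41 (adjusted p = 0.0474, edgeR), a call lost when ERI2 siRNA replicate 2 or 3 or any 1 control library was left out (adjusted p from 0.0527 to 0.220), and the partner arm miR-6729-3p had 0.20 and did not pass. Of the other 5 called hosts, TCIRG1 had 0.57 and miR-6753-3p 0.52 under TMM, and NSMF had 0.43 and miR-7114-3p 0.25. HGS had 0.40 and miR-6786-5p 0.10, NOL6 had 0.29 and miR-6851-5p 0.29, and INTS11 had 0.27 and miR-6727-5p -0.24 under TMM. Of the late names in these 5 genes, miR-6753-3p alone was called under TMM, and all of them were called higher under total library size. The hosts of the most abundant names inside a same-strand gene did not pass. SNX8 for miR-6836 had -0.12, FKBP1A for miR-6869 -0.11, LPCAT1 for miR-6075 -0.02 and PLEKHJ1 for miR-6789 0.23.

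The long RNA table listed 17 miRNA genes of the late names under their own symbols, of which 9 were at 0 in every library. MIR5587 alone had at least 30 counts, with 15, 20 and 26 with ERI2 siRNA and 22, 18 and 10 with control siRNA. A log2 fold change of 0.38 did not pass (edgeR's quasi-likelihood test, adjusted p = 0.556). The other listed genes had fewer than 30 counts each, too few for a statement on their primary transcripts. Late names whose miRNA gene was not listed could not be read in this way.

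Most genes of miRNA processing and turnover did not pass the test in mRNA level. Of 32 such genes 31 were tested, and 2 were higher and 0 lower by edgeR, where 4.29% of all genes were higher and 4.25% lower, so the list's count of calls is near that of all genes. At an unadjusted p under 0.05, 2 were lower, and DESeq2 and limma-voom called 0 lower, while their median log2 fold change was -0.01. TNRC6A, a partner of Argonaute proteins, measured 161, 162 and 159 CPM with ERI2 siRNA, against 128, 129 and 125 CPM with control siRNA (log2 fold change 0.34; edgeR's quasi-likelihood test, adjusted p = 0.00940). TARBP2, a partner of DICER1, measured 40.2, 40.5 and 42.7 CPM with ERI2 siRNA, against 33.0, 33.6 and 36.3 CPM with control siRNA (0.26, adjusted p = 0.0488 in edgeR). The count of rises was 0 without ERI2 siRNA replicate 2, 0 without control replicate 3, and 1 without ERI2 siRNA replicate 3 or control replicate 2, and 3 without ERI2 siRNA replicate 1. The related exonucleases ERI1 and ERI3 had log2 fold changes of -0.23 (adjusted p = 0.112, edgeR) and -0.06 (adjusted p = 0.706, edgeR).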

How the data were processed

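Raw read counts per mature miRNA name and per gene were deposited by the authors as whole numbers, 1 column per library; each column name matched 1 sample. The submitters' processing notes name build hg19 and the tools HTSeq 0.6.1p1, TopHat2 2.0.10 and CASAVA 1.8.2, without a role or order. No source used here gives the small RNA kit, the aligner for miRNA reads or the release of the names. The protocol text of the labels also names ERI-1 siRNA and a harvest for microarrays.

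The names, the gene lists and the rule for named members were chosen with earlier results of these data known. Counts were tested in R 4.3.3 with edgeR 4.0.16 (filterByExpr, TMM, robust quasi-likelihood), the assays separately, with calls at an adjusted p under 0.05 by Benjamini and Hochberg over all tested names or genes; total library size was the second scale. CPM of total counts uses the total, other CPM use TMM. Arm ratios were tested over hairpins with at least 30 counts in a model with a term per library, arm and arm by group. Shares within a library have 95% Wilson intervals. Each fit was tested on simulated data with changes of random direction, which does not test how calls depend on the scaling. Sequences and host spans come from RefSeq GRCh38.p14; no coordinates are given, since the files are of another build.

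Named were the 12 most abundant names, up to 12 per direction with the smallest p, up to 6 whose call depends on the scale, both arms of hairpins with both arms among the names, names at the count limit, names sharing a seed, names whose miRNA gene has at least 30 RNA-seq counts, and any with most counts in 1 library, of which there were 0. Names or ends chosen after their values were seen are marked. Alternatives were DESeq2 1.42.0, limma-voom (limma 3.58.1), RLE, upper quartile, other filters, limits of 100 and 1000 counts, leaving out each library, and replicate blocks; leaving out libraries under total library size was added after the data were seen.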

Additional observations from a re-analysis of the deposited data

How the results depend on the processing

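With total library size in place of TMM, 1030 of all tested names were higher and 180 lower (146 and 303 under TMM), and of the late names 140 and 2 (37 and 14). Upper-quartile factors gave 580 higher names, with 114 late names higher and 7 lower; no filter on low counts gave 223, with 56 and 9. Leaving out each library gave 74 to 146 higher and 278 to 328 lower names, 21 to 36 and 9 to 18 of them late; under total library size the late names were 140 higher in each and 2 to 3 lower. Arm ratios numbered 34 to 42 higher and 36 to 52 lower (43 and 58 with all libraries), 21 and 24 with limma on log2 ratios with 0.5 reads added but 43 and 53 with 2 reads added, and 36 lower in replicates 2 and 3 alone. Without miR-10a-5p in the total, the share of the late names was 20.2% with ERI2 siRNA and 9.55% with control siRNA. In the list of 31 processing genes, where 2 were higher, total library size gave 4, replicates 2 and 3 alone 5 higher and 1 lower, the same with total library size 10, and leaving out each library 0 to 3. RLE factors, a filter at 10 CPM in 3 libraries and leaving out miR-10a-5p kept both late counts within 1.5 times. A limit of 100 counts gave 46 higher and 21 lower of 283 late names. A limit of 1000 counts gave 29 higher and 11 lower of 79, so the share of late names called rose with the limit. The causes were not tested.

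The labels do not state that replicate numbers pair samples. Deviations from the group mean in same-numbered small RNA libraries had correlations of -0.143, -0.0588 and 0.0015. In RNA-seq they were -0.300, -0.0792 and -0.104. With 3 libraries per group these values cannot exclude a pairing. The replicate block left 26 late names higher and 11 lower, 0 of 711 arm ratios changed in either direction with limma (137 at an unadjusted p under 0.05) and 0 list genes; the replicate block with total library size gave 1020 higher and 176 lower names, 140 and 2 of them late, and 0 list genes higher. Replicates 2 and 3 alone with total library size gave 1042 and 182, of them 140 and 3 late.

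Signs were followed across settings only for the 47 late names chosen by the rule for named members. Of all late names, 106 had a positive log2 fold change under TMM and 141 under total library size. The signs listed here are therefore not all that turned. Values are given under total library size, that scale with the replicate block, and that scale in replicates 2 and 3 alone. Signs turned for miR-6836-3p (1.08, 1.07 and 1.11), miR-7704 (0.91, 0.90 and 1.02) and miR-6765-3p (0.77, 0.78 and 0.88). They also turned for miR-5587-5p (0.97, 0.94 and 1.19), miR-6860 (0.87, 0.86 and 1.0) and miR-6722-3p (0.79, 0.79 and 0.70). The same held for miR-6820-3p (0.46, 0.46 and 0.38), miR-6737-3p (1.15, 1.15 and 1.30) and miR-6750-3p (0.11, 0.11 and 0.14). In the last of these settings miR-5585-3p had 0.13 and miR-5096 0.16. Under the upper quartile, miR-6836-3p had 0.31, miR-7704 0.14, miR-6765-3p 0.01, miR-5587-5p 0.22, miR-6860 0.11, miR-6722-3p 0.03 and miR-6737-3p 0.39. miR-6737-3p had 0.05 without a filter and -0.26 to 0.01 leaving out each library, where miR-6869-5p had -0.02 to 0.10 and miR-6836-5p -0.42 to 0.23. miR-6836-5p had -0.05 with limma-voom, -0.05 with the replicate block and -0.53 in replicates 2 and 3 alone. Depth limits the rarest names, with as few as 14 counts in a library.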
